A study of Mus musculus with 12 samples.

Results

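Cholesterol is built from acetyl-CoA in a long chain of enzymatic steps, and 7 genes of that chain and its control were examined in mouse thymocytes with and without miR-181a/b-1, a pair of microRNA genes. The genes were chosen by name: Hmgcs1 (ENSMUSG00000093930.2), Idi1 (ENSMUSG00000058258.14), Fdft1 (ENSMUSG00000021273.11), Sqle (ENSMUSG00000022351.14), Cyp51 (ENSMUSG00000001467.5), Srebf2 (ENSMUSG00000022463.8) and Insig1 (ENSMUSG00000045294.11). All 7 were found among the 55335 gene rows of the deposited counts. The study took thymocytes from 6-week-old mice kept under SPF conditions, 3 wild type (WT) and 3 with the miR-181a/b-1 knockout (KO), and profiled each genotype by RNA-seq and by ribosome footprinting in 3 libraries. Cells of both genotypes were strained and put at once into buffer with cycloheximide, which stalls ribosomes on the mRNA. Ribosome footprints are the stretches of mRNA that ribosomes shield from nuclease, and their count follows how much a transcript is being translated. The labels do not give the strain, the sex, how the deletion was made, or which libraries came from 1 mouse.

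Sterol synthesis is controlled by feedback at the endoplasmic reticulum. When sterols are scarce, the transcription factor precursor encoded by Srebf2 (SREBP2) is escorted by SCAP to the Golgi and cut by proteases, and its free part turns on the synthesis enzymes and INSIG1. When sterols are plentiful, INSIG1 and INSIG2 hold SCAP and SREBP2 back, so that the whole set of genes goes down together. In thymocytes and other lymphocytes this programme is known to be turned up with growth and division, which need membrane.

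The deleted microRNAs share their seed, the bases that pair with target mRNAs. Both mature sequences are shown because the deleted genes encode them, with seed bases 2 to 8 in capitals. They are from RefSeq on GRCm38.p6, at chr1:137966468-137966490 and chr1:137966650-137966673 on the plus strand.
miR-181a-5p: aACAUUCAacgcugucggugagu
miR-181b-5p: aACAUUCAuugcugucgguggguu

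What ties the 7 genes together is SREBP2, which binds sterol regulatory elements in promoters, often beside a CCAAT box bound by NF-Y. RefSeq promoter entries on GRCm38.p6 were found for 5 of the 7 genes by symbol. The 250 bases before the start of each were searched on both strands for TCACNNCA, the core of the sterol regulatory element, and for ATTGG, the CCAAT box read on the other strand; the motifs do not overlap in these windows. Matches are in capitals in the 4 sequences below, written in the direction of the gene. They lie at chr13:119690101-119690350 (Hmgcs1, plus strand), chr15:82147019-82147268 (Srebf2, plus strand), chr5:4104698-4104947 (Cyp51, minus strand) and chr5:28071162-28071411 (Insig1, plus strand).
Hmgcs1: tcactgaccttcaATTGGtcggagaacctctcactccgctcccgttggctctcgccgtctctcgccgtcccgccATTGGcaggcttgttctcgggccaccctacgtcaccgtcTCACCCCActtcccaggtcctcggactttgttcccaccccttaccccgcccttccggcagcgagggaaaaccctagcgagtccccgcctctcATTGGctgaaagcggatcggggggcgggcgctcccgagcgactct
Srebf2: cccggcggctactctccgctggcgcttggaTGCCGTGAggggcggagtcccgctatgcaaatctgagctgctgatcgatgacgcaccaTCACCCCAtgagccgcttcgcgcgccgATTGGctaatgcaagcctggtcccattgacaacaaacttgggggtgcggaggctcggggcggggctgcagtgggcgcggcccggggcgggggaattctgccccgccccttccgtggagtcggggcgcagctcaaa
Cyp51: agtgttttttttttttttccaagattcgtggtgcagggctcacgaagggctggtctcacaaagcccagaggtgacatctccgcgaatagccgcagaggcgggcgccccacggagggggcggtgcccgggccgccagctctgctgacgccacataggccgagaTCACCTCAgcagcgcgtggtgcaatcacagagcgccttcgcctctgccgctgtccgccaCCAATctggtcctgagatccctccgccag
Insig1: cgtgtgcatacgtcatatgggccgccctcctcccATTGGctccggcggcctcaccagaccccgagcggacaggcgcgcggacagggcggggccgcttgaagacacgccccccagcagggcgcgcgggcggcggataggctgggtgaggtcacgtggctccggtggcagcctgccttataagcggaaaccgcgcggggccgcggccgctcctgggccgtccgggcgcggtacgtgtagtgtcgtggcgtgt
TCACNNCA was present in 3 of the 5 windows, in Hmgcs1 at 137, in Cyp51 at 88 and in Srebf2 at 162 and, on the other strand, at 220 bases before the start. Of all 32851 promoter windows of the same length, 11.4% held it. ATTGG was present in all 5 windows, Idi1 included, against 33.8% of all windows, and 3.8% of all windows held both. These matches describe letters and are not measured binding sites.

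Reads in genes numbered 4479182 to 8180286 per RNA-seq library and 4069968 to 17859770 per footprint library, the fewest in footprint KO replicate 3. The deleted Mir181a-1 had 133 to 166 CPM (reads relative to the TMM-scaled library total) in the 3 footprint WT libraries and 0.464 to 1.04 CPM in the 3 KO libraries, so it checks the footprint labels. In RNA-seq it had 7 to 25 reads per WT library and 10 to 41 per KO library and checks nothing, so RNA-seq libraries are called here by their labels. The 10 thymocyte markers (among them Cd3e, Cd4, Cd8a, Rag1 and Ptcra) were all detected and summed to 12042 to 14365 CPM in RNA-seq and 20021 to 21343 CPM in footprints. One property of the deposited counts touches every test: a gene high in a WT library relative to the WT mean was low in the same-numbered KO library relative to the KO mean. Over 8010 genes in RNA-seq these deviations correlated at -0.99 to -0.95, and over 8643 genes in footprints at -0.99 to -0.98, against 0.18 to 0.71 and 0.36 to 0.64 for differently numbered libraries. Such correlations run across genes, and genes are not independent samples. Within-group SDs and SEs are thus no measure of how mice vary. Each test was therefore run in 2 ways, first by genotype alone and then with a block for the replicate number, and "rose" or "fell" is written only where both pass an adjusted p (FDR) of 0.05.

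None of the 7 genes passed the test in RNA, in footprints or in translation (how far footprints changed relative to RNA). In RNA-seq 0 of the 6 tested genes were called, where edgeR called 6.91% of 13652 genes without the block and 0.806% with it. In footprints 0 of 7 were called, against 17.6% of 13509 genes and 3.02% with the block. In translation 0 of 6 were called, against 0.211% of 11854 genes and 0.0169% with the block. An unadjusted p under 0.05 was seen for 0 of 6 genes in RNA, 0 of 7 in footprints and 1 of 6 in translation, which was Insig1, beside 23.8%, 33.1% and 14.0% of all genes tested, so the share in translation is near the background; DESeq2 also called 0 in each. The median log2 fold change (KO against WT) of the genes was 0.03 in RNA, 0.01 in footprints and 0.01 in translation, beside 0.00, -0.01 and 0.01 over all genes tested. The authors' deposited table also lists none of the 6 genes it holds as significant, with adjusted p-values of 0.695 to 0.990 in RNA and 0.314 to 0.983 in footprints. Idi1 is not in that table.

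**Figure D1:**
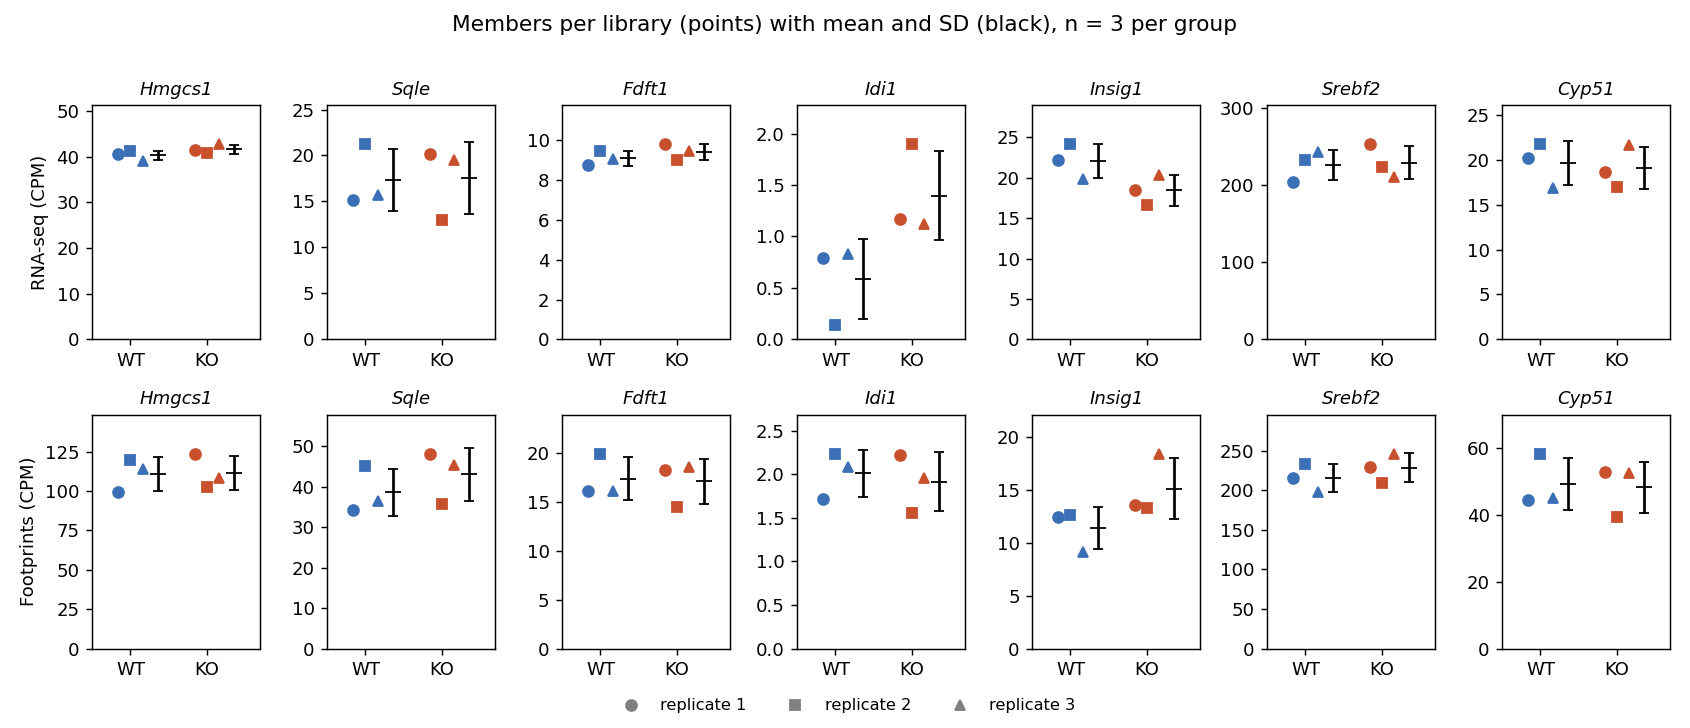
CPM of each of the 7 genes in every library, RNA-seq above and footprints below, with WT in blue and KO in red; symbols mark the replicate number, and black bars give the mean and SD of 3 libraries. The groups overlap in every panel except Insig1 in footprints and Idi1 in RNA-seq, where KO lies above WT. The share of all genes that separate in this way is not given here, so neither separation is read as a result.

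Hmgcs1 encodes cytosolic HMG-CoA synthase, which acts at the entry to the pathway. Its RNA stood at 40.5, 41.1 and 39.1 CPM in WT-labelled libraries and at 41.4, 40.7 and 42.7 CPM in KO-labelled libraries. Its SE was the smallest of the 6 genes tested in RNA, with group means of 40.3 ± 1.04 and 41.6 ± 0.984 CPM (SD, n = 3). The log2 fold change was 0.05 (SE 0.06, edgeR FDR 0.683), and with the block its 95% interval ran from -0.28 to 0.38, or 0.824-fold to 1.30-fold. Its footprints were 99.1, 119.8 and 113.8 CPM in WT and 123.7, 102.5 and 108.0 CPM in KO. The groups overlapped over most of their span, and the log2 fold change was 0.01 (SE 0.10, edgeR FDR 0.969).

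Idi1 encodes isopentenyl diphosphate isomerase, which makes the building block from which all isoprenoids grow. It had few reads in either assay. Its RNA rested on 5, 1 and 6 reads in the libraries labelled WT and on 8, 8 and 9 reads in those labelled KO, or 0.795, 0.139 and 0.826 CPM against 1.17, 1.89 and 1.12 CPM. All KO values lay above all WT values, a separation whose share over all genes is not given here. The gene did not pass the filter on low counts and was not tested in the main RNA fit. Without the filter its log2 fold change was 1.16 (SE 0.47, edgeR FDR 0.255). Footprints of Idi1 did not share that direction, with 1.72, 2.24 and 2.08 CPM in WT and 2.23, 1.56 and 1.96 CPM in KO (log2 fold change -0.11, SE 0.20, edgeR FDR 0.778). The lowest footprint count was 8 reads, in KO replicate 3.

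Fdft1 encodes squalene synthase, the first enzyme committed to sterols. Its RNA lay between 8.74 and 9.48 CPM in the WT-labelled libraries and between 8.997 and 9.80 CPM in those labelled KO, with 38 to 76 reads per library. Footprints were 16.2, 20.0 and 16.1 CPM in WT and 18.3, 14.5 and 18.7 CPM in KO. WT replicate 2 was the highest and KO replicate 2 the lowest of the 6. The log2 fold changes were 0.05 (SE 0.09) in RNA and -0.07 (SE 0.13) in footprints, with edgeR FDR 0.853 and 0.773.

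Sqle encodes squalene epoxidase, which adds the oxygen that becomes the sterol hydroxyl group. Its SE was the largest of the 6 genes tested in RNA: 15.1, 21.2 and 15.7 CPM of RNA in those labelled WT and 20.2, 13.02 and 19.5 CPM in those labelled KO. Replicate 2 stood apart in both groups, high in WT and low in KO. The group means were 17.3 ± 3.36 and 17.6 ± 3.94 CPM (SD, n = 3), and the log2 fold change was 0.05 (SE 0.20, edgeR FDR 0.915). In footprints the same order recurred, with 34.1, 45.2 and 36.4 CPM in WT and 48.1, 35.7 and 45.4 CPM in KO. The footprint log2 fold change was 0.13 (SE 0.15, edgeR FDR 0.596).

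Cyp51 encodes lanosterol 14-alpha-demethylase, which opens the conversion of lanosterol to cholesterol. RNA was 20.2, 21.8 and 16.9 CPM in the libraries labelled WT and 18.7, 17.0 and 21.7 CPM in those labelled KO (log2 fold change -0.02, SE 0.13, edgeR FDR 0.955). Footprints were 44.7, 58.4 and 45.1 CPM in WT and 53.0, 39.4 and 52.5 CPM in KO (log2 fold change -0.07, SE 0.16, edgeR FDR 0.816). As with Sqle, the replicates numbered 2 held the highest WT and the lowest KO footprint value.

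Srebf2 encodes SREBP2 itself. Its RNA had 204, 232 and 242 CPM in the libraries labelled WT and 252, 223 and 210 CPM in those labelled KO, from 941 to 1758 reads per library. Its footprints had 215, 233 and 198 CPM in WT and 229, 210 and 246 CPM in KO. Both sets overlapped, with log2 fold changes of 0.02 (SE 0.09) and 0.08 (SE 0.08) and edgeR FDR 0.943 and 0.566. With the block the 95% interval of the footprint change ran from 0.905-fold to 1.23-fold. These counts measure the mRNA and ribosomes on it, not the cleavage of the protein.

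Insig1, the sterol-sensing retention factor and itself a target of SREBP2, had the lowest adjusted p of the 6 genes tested in RNA, of the 7 in footprints and of the 6 in translation; without the filter on low counts, Idi1 had a lower one in RNA (edgeR FDR 0.255 against 0.405). Its RNA was 22.3, 24.1 and 19.8 CPM in the libraries labelled WT and 18.4, 16.6 and 20.3 CPM in those labelled KO. The groups overlapped only through WT replicate 3 and KO replicate 3, and the log2 fold change was -0.24 (SE 0.11, edgeR FDR 0.243, or 0.765 with the block). Footprints went the other way, with 12.4, 12.6 and 9.10 CPM in WT and 13.5, 13.3 and 18.4 CPM in KO. All 3 KO values lay above all 3 WT values, by little in replicates 1 and 2 and by much in replicate 3, the shallowest KO library, with 75 Insig1 reads. Here too the share of all genes with such a separation is not given. The footprint log2 fold change was 0.32 (SE 0.16, edgeR FDR 0.237, or 0.425 with the block), and it was 0.22 without KO replicate 3 and 0.20 without WT replicate 3. The change of footprints beyond RNA came to 0.56 on the log2 scale (SE 0.21, 95% interval 0.11 to 1.01, unadjusted p = 0.0192), which did not pass adjustment (edgeR FDR 0.261, or 0.998 with the block, where the interval was -0.01 to 1.22). For the 5 other tested genes the translation change lay between -0.12 (Fdft1) and 0.08 (Sqle), with edgeR FDR of 0.829 or more.

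**Figure D2:**
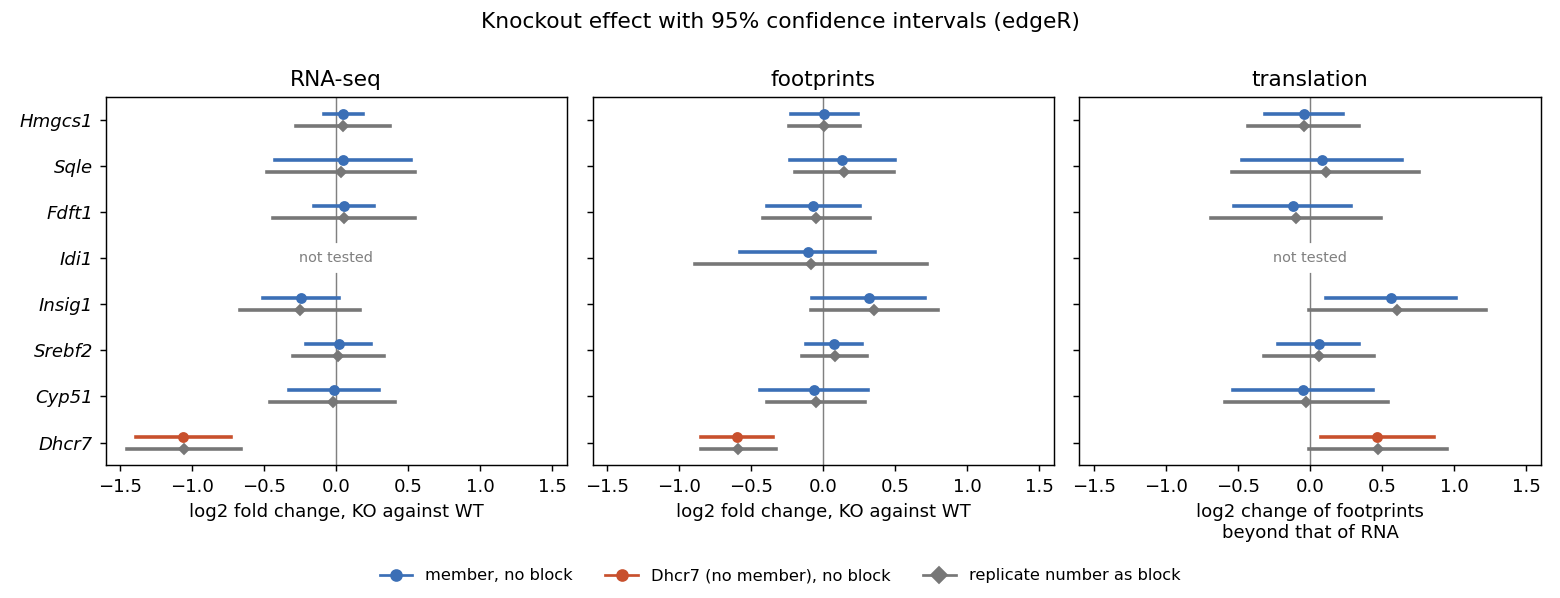
Log2 fold change of KO against WT with its 95% interval in RNA-seq, in footprints and in translation, without the block (coloured circles) and with it (grey diamonds). The intervals of the 7 genes include 0 except that of Insig1 in translation without the block (0.11 to 1.01), while Dhcr7, shown for comparison, lies at -1.06 in RNA and -0.60 in footprints.

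The intervals show how closely the fits set each change. With the block, the 95% intervals of the 6 genes in RNA lay between 0.631-fold (Insig1) and 1.46-fold (Fdft1). In footprints those of the 7 genes lay between 0.540-fold (Idi1) and 1.74-fold (Insig1), and in translation those of 6 lay between 0.621-fold (Fdft1) and 2.33-fold (Insig1). These bounds are the extremes over the genes, so the interval of each single gene is narrower. With the block, each gene's own interval included the value of no change.

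The rest of the pathway was read from a list of 16 further enzymes, all of which passed the filter in both assays. In RNA 1 of 16 was called lower and none higher, and in footprints 1 was called lower and 1 higher, beside 6.91% and 17.6% of all genes called, so both counts are near or below the background. With the block 1 of 16 was called in each assay, beside 0.806% and 3.02% of all genes. The one that passed both fits was Dhcr7, which encodes 7-dehydrocholesterol reductase, the enzyme of the final reduction in the Kandutsch-Russell branch. Dhcr7 RNA fell from 58.8, 45.1 and 51.8 CPM in the WT-labelled libraries to 21.7, 28.9 and 24.7 CPM in those labelled KO. No KO value reached the lowest WT value, a separation whose share over all genes is not given here. The log2 fold change was -1.06 (SE 0.14, edgeR FDR 0.0109, or 0.0171 with the block). Dhcr7 footprints fell as well, from 162, 158 and 132 CPM in WT to 92.8, 95.8 and 114 CPM in KO (log2 fold change -0.60, SE 0.10, edgeR FDR 0.0126, or 0.0283 with the block). That footprint call was lost without KO replicate 2 (edgeR FDR 0.0557). In bulk samples such as these, fewer cells of a type and less RNA per cell cannot be told apart. Summed markers of other cells also moved with the RNA labels: 6 erythroid markers held 76.0 to 90.9 CPM under WT and 46.6 to 58.4 CPM under KO, and 6 B cell markers 237 to 271 and 287 to 330 CPM, none of them at 0. Their part in the Dhcr7 result was not tested. Ebp, the isomerase that shifts a double bond of the sterol ring, was called higher in footprints without the block (log2 fold change 0.20, edgeR FDR 0.0335) and not with it (FDR 0.331).

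Among the mevalonate enzymes, the RNA log2 fold changes were -0.49 for Mvk, -0.19 for Pmvk and -0.50 for Mvd, none of which passed (edgeR FDR 0.0692, 0.343 and 0.0938). Acat2, Fdps, Lss, Msmo1, Nsdhl, Hsd17b7, Sc5d, Tm7sf2 and Lbr passed in neither assay. Over the 16 enzymes the median log2 fold change was -0.11 in RNA, with 11 of 16 below 0, and -0.08 in footprints, with 10 of 16 below 0. The corresponding medians of all genes tested were 0.00 and -0.01, with 6837 of 13652 genes below 0 in RNA and 6974 of 13509 in footprints. A joint shift of the 16 enzymes was not tested. None of the 16 was called in translation.

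The sister factor Srebf1 and the proteins that hold, escort, cut or degrade parts of the SREBP system formed a list of 9 genes. In footprints 2 of 9 were called lower and none higher, and 1 of these passed both fits, beside 17.6% of all genes called without the block and 3.02% with it. The footprint count of 2 in 9 is close to the background. In RNA 2 of 9 were also called lower and 0 higher, beside 6.91% of all genes, and 0 of 9 with the block. Log2 fold changes were below 0 for 8 of 9 genes in RNA and for 6 of 9 in footprints. Over all genes tested they were below 0 for 6837 of 13652 and 6974 of 13509. A joint shift of the 9 genes was not tested. The gene that passed both fits in footprints was Mbtps1, the site-1 protease that makes the first cut in SREBP precursors. Mbtps1 footprints fell from 189, 185 and 176 CPM in WT to 130, 132 and 138 CPM in KO (log2 fold change -0.47, SE 0.04, edgeR FDR 0.00165, or 0.0197 with the block). In RNA, Mbtps1 had 508 to 547 CPM under the WT label and 386 to 417 CPM under the KO label (log2 fold change -0.39, edgeR FDR 0.0163), a call that was lost with the block (FDR 0.292). Syvn1, a ubiquitin ligase of the endoplasmic reticulum, was called lower in footprints without the block only (log2 fold change -0.29, edgeR FDR 0.0188, or 0.155 with the block). Srebf1, which mainly drives fatty acid genes, was called lower in RNA without the block only (log2 fold change -0.39, edgeR FDR 0.0408, or 0.343 with the block), and its footprint change was -0.10 (FDR 0.312). Scap and Insig2, the other partners of the sterol sensor, were not called in either assay: their log2 fold changes were -0.09 and -0.22 in RNA and 0.02 and -0.05 in footprints.

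Cells also take up, store and export cholesterol. Of 11 uptake and transport genes tested in footprints, 1 was called higher and 1 lower, a share near the 17.6% of all genes called. Lipa, the lysosomal acid lipase that frees cholesterol from esters taken up by the cell, rose from 434, 418 and 416 CPM in WT to 603, 625 and 624 CPM in KO (log2 fold change 0.55, SE 0.04, edgeR FDR 0.000481, or 0.00691 with the block). Mylip, a ubiquitin ligase that limits lipoprotein uptake, was lower without the block only (-0.34, edgeR FDR 0.0332, or 0.154 with the block). Of 9 efflux, storage and oxysterol genes tested in footprints, 1 was called higher and 2 lower, and 2 with the block, beside 17.6% and 3.02% of all genes. Abca1, the exporter of cholesterol to apolipoprotein A-I, fell from 159, 149 and 158 CPM to 98.7, 106 and 98.7 CPM (log2 fold change -0.62, SE 0.05, edgeR FDR 0.000822, or 0.00463 with the block). Apoe, the apolipoprotein that carries the exported lipid, fell from 400, 362 and 407 CPM to 260, 286 and 253 CPM (log2 fold change -0.55, SE 0.07, edgeR FDR 0.00407, or 0.0139 with the block). Nceh1, a cholesterol ester hydrolase, was higher without the block only (0.26, edgeR FDR 0.00911, or 0.282 with the block).

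Apoe, Abca1 and Lipa are also highly expressed in macrophages. The 9 macrophage and dendritic cell markers, none of them at 0, summed to 294 to 332 CPM in WT footprints and to 278 to 319 CPM in KO footprints, ranges that overlap. There 7 of the 9 had a negative log2 fold change, as did 6974 of all 13509 genes tested. Of the 9, 2 were called lower without the block and 0 with it. Over all genes 17.6% and 3.02% were called, so the count of 2 in 9 is near the background. The part of macrophages and dendritic cells in the Apoe, Abca1 and Lipa results was not tested. In RNA the same genes pointed the same way as in footprints: the log2 fold changes were -0.51 for Abca1, -0.51 for Apoe and 0.41 for Lipa. By edgeR only Abca1 was called there, without the block. In the authors' deposited RNA comparison the adjusted p-values were 0.00132 for Abca1, 0.0385 for Lipa and 0.172 for Apoe.

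In the sister programme of fatty acid synthesis, 1 of 11 genes tested in footprints was called, fewer than the 17.6% of all genes. Elovl5, which elongates polyunsaturated fatty acids, rose from 136, 162 and 143 CPM in WT to 242, 202 and 229 CPM in KO (log2 fold change 0.61, SE 0.09, edgeR FDR 0.00773, or 0.0153 with the block). In RNA, the acetyl-CoA carboxylases Acaca (0.35) and Acacb (-0.98) were called in opposite directions without the block and neither was with it. Of 12 genes of the isoprenoid branches, which draw on the same mevalonate, Fnta (0.27) and Pdss1 (-0.39) were called in footprints without the block only, a share near that of all genes.

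The 7 genes had a common order over the libraries, which was seen after the values were known and is a description. In WT footprints all 7 were highest in replicate 2, while 30.0% of all genes tested were. In WT RNA-seq 5 of 6 were highest in replicate 2, against 31.8% of all genes. Subtracting WT from KO within each replicate number put the lowest difference at number 2 for all 7 genes in footprints and for 5 of 6 in RNA, against 29.6% and 32.7% of all genes. Because the counts are mirrored, the low KO values at number 2 are not separate evidence from the high WT values. The labels do not say that a number joins a WT and a KO mouse.

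At number 1 all 7 footprint differences were positive, from 0.09 (Srebf2) to 0.49 (Sqle) on the log2 CPM scale, with a median of 0.24. At number 2 the median was -0.34, the lowest value was -0.56 (Cyp51), and Insig1 alone was above 0, at 0.07. At number 3 the median was 0.22, with Insig1 at 0.98, Hmgcs1 at -0.08 and Idi1 at -0.07. In footprints the differences of Hmgcs1, Sqle, Fdft1 and Cyp51 thus changed sign between numbers. With mirrored counts and no known pairing, these signs restate the order of the WT libraries and do not explain the averages. In RNA, Hmgcs1 differed little at each number, by 0.03, -0.01 and 0.12, and Fdft1 differed by 0.16, -0.07 and 0.06. Other lists did not all share this order. The lowest footprint difference was at number 2 in 10 of 16 further synthesis enzymes, 7 of 11 fatty acid genes, 2 of 10 proliferation markers, 6 of 7 thymic epithelial markers and 5 of 5 erythroid markers. The summed erythroid markers were 56.2, 75.6 and 40.7 CPM in WT footprints and 53.7, 34.8 and 74.1 CPM in KO footprints. The part of erythroid or epithelial cells in the order of the 7 genes was not tested.

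**Figure D3:**
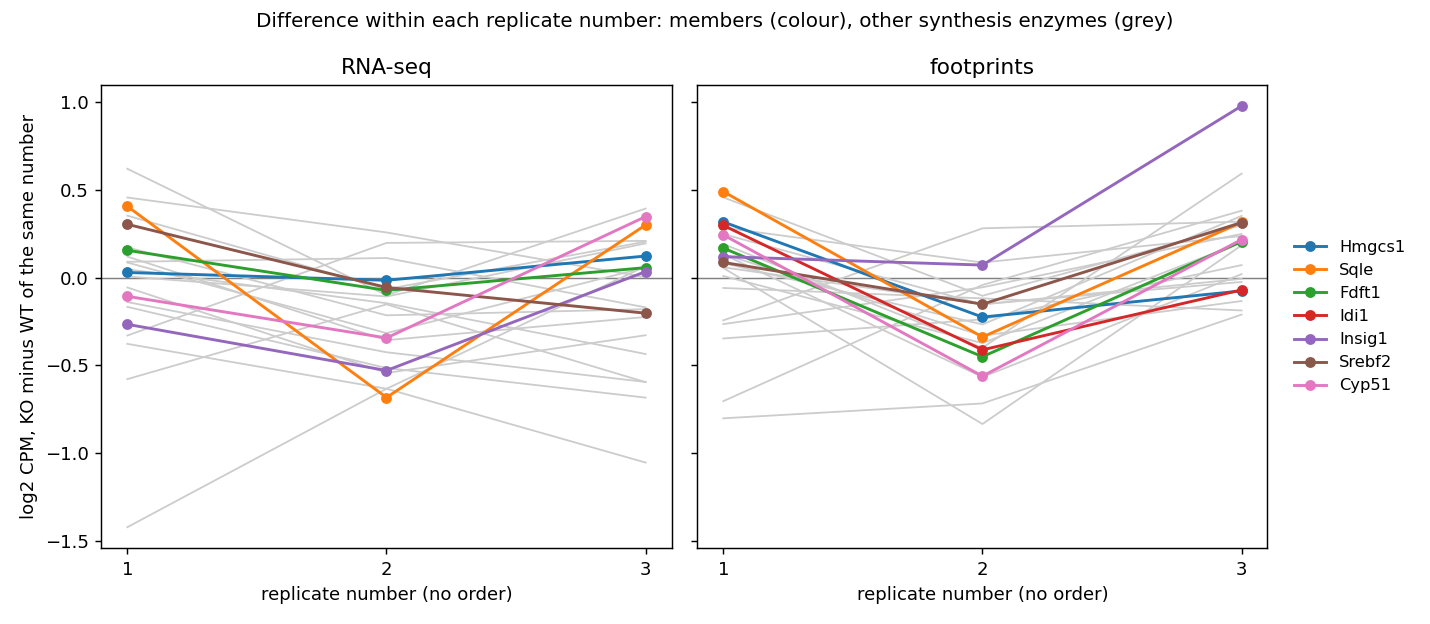
Log2 CPM of KO minus WT at each replicate number, in RNA-seq and in footprints; colours are the 7 genes (Idi1 in footprints only), grey lines the 16 further synthesis enzymes, and lines join values of 1 gene without implying an order. In footprints the 7 genes have their lowest point at number 2, where 6 of 7 lie below 0.

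In WT cells the genes differed in how many footprints they had for their RNA. The log2 ratio of footprint CPM to RNA CPM was 1.46 for Hmgcs1, 1.33 for Cyp51, 1.15 for Sqle and 0.94 for Fdft1. These 4 enzymes lay at percentiles 90.4, 88.6, 85.6 and 81.1 of the 11854 genes tested in both assays, whose median was -0.20. The regulators stood lower: Srebf2 had a ratio of -0.07, at percentile 53.7, and Insig1 of -0.95, at percentile 28.1. Over the 9 pairings of WT libraries, the ratio of each of the 4 enzymes stayed at or above 0.69 and that of Insig1 at or below -0.65. Fdft1, from 0.76 to 1.19, lay below Hmgcs1, from 1.27 to 1.62, while Cyp51 and Sqle overlapped both. The median of the 6 genes was 1.05, and that of the 16 further enzymes 0.48, from -0.94 for Tm7sf2 to 2.01 for Ebp. High ratios were not particular to these genes. Medians of the marker lists ran from -0.30 (erythroid) to 2.03 (macrophage and dendritic cell), with 0.83 for thymocyte and 1.65 for proliferation markers. The share of a transcript that is coding also sets this ratio and was not measured here, and no test was made.

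**Figure D4:**
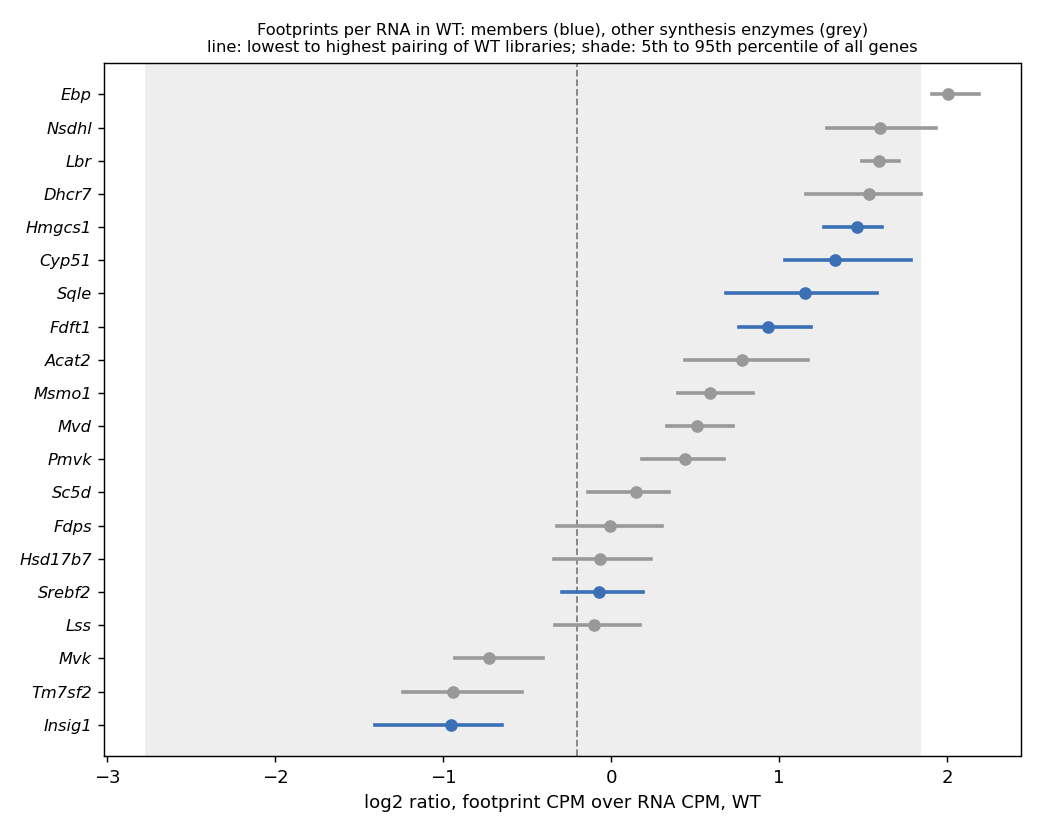
Log2 ratio of footprint CPM to RNA CPM in WT for 6 of the 7 genes (blue) and 14 of the 16 further synthesis enzymes (grey); points are ratios of group means, lines run from the lowest to the highest of the 9 library pairings, the dashed line is the median of 11854 genes (-0.20) and the shade their 5th to 95th percentile (-2.77 to 1.84). Hmgcs1, Cyp51, Sqle and Fdft1 lie above 0.9, and Insig1 lies at -0.95.

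The mean profile of the 6 genes over the 12 libraries was compared with that of 8061 other genes outside the lists with a mean log2 CPM of at least 3 in both assays. The nearest were Alkbh3, Parn and Usf3, with root mean square differences of 0.047, 0.051 and 0.052 on the log2 scale, where the median gene had 0.175. The genes themselves lay between 0.065 (Fdft1) and 0.177 (Insig1) from their own mean, so Insig1 was no nearer to it than the median gene.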

How the data were processed

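RNA-seq and ribosome footprint libraries of thymocytes, 12 in 4 groups of 3 by the genotype and assay in their titles, were analysed from the deposited counts, whole numbers of reads for each Ensembl gene, which the authors' file names call adjusted; what was adjusted is not stated. Per the submitters' processing notes, FastQC, Bowtie2 2.5.1, STAR 2.7.10a, HTSeq 2.0.3 and DESeq2 1.40.2 were used, with no role or order stated, and no genome build, annotation or strandedness is given there. The 5 rows that name no gene were left out: RNA-seq had 27.0% to 28.5% of counted reads in genes and footprints 72.3% to 73.1%. Reads with several alignments were set apart (13.1% to 20.5% and 17.7% to 18.6%), so genes with near-identical copies are counted from their unique reads. The authors' deposited tables of their own comparison gave the log2 fold changes and adjusted p-values credited to them; their 12 columns of per-library values were not used.

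Both assays were fitted separately in edgeR 4.0.16 (R 4.3.3; TMM, filterByExpr with a minimum count of 10, quasi-likelihood test, Benjamini-Hochberg over all genes tested), with and without the replicate number as a block. Translation is the interaction of genotype and assay over 12 libraries. CPM and log2 values were computed here, with 0.5 CPM added for differences within a replicate number. The series' design text speaks of 3 mice per genotype. The alternatives comprised DESeq2 1.42.0, RLE size factors, no filter, the block, a joint fit and leaving out each library. The fits were also run on simulated counts. Those counts lacked the mirrored deviations of same-numbered libraries, so they cannot show how either fit behaves on the deposited counts. Named were the 7 genes, the 16 further enzymes, called genes of the other lists, Srebf1, Scap and Insig2, and the 3 genes of nearest profile; some genes that this rule names are not reported here. The 7 genes and all lists were chosen with earlier results of these data known.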

Additional observations from a re-analysis of the deposited data

How the results depend on the processing

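None of the 7 genes was called under any alternative: of 238 values of single genes, the lowest adjusted p was 0.124 (Insig1 in translation, no filter). Leaving out 1 library changed the sign of small differences. In RNA the log2 fold change ranged from -0.051 to 0.22 for Sqle, -0.061 to 0.069 for Srebf2 and -0.13 to 0.065 for Cyp51. In footprints it ranged from -0.074 to 0.072 for Hmgcs1, -0.14 to 0.068 for Fdft1, -0.27 to 0.095 for Idi1 and -0.16 to 0.087 for Cyp51. In translation it ranged from -0.13 to 0.019 for Hmgcs1, -0.087 to 0.22 for Sqle, -0.19 to 0.013 for Fdft1, -0.0022 to 0.13 for Srebf2 and -0.14 to 0.10 for Cyp51. Of the 16 further enzymes, 1 was called in RNA, against 2 under DESeq2, 2 without the filter and 3 in the joint fit. In footprints 2 were called, against 1 under DESeq2, 1 without the filter, 1 with the replicate block and 0 to 1 when a library was left out. The cause was not tested. Dhcr7 in RNA and Lipa, Abca1, Apoe, Elovl5 and Mbtps1 in footprints kept their calls in every alternative run; the calls said to hold without the block only were lost with it, and each was also lost when at least 1 library was left out, from 1 of 6 omissions (Nceh1, without KO replicate 2) to 6 of 6 (Ebp in footprints, and Srebf1, Mbtps1, Acaca and Acacb in RNA). DESeq2 also lost Ebp, Nceh1, Pdss1, Acaca and Acacb. Over all genes, the 943 RNA calls became 532 under DESeq2, 1557 in the joint fit and 110 with the block, and 215 to 323 without 1 library. The 2376 footprint calls became 1235 under DESeq2, 408 with the block and 1035 to 1554 without 1 library. The 25 translation calls became 44 under DESeq2, 272 without the filter, 2 with the block and 6 to 24 without 1 library. The block treats replicate numbers as pairs; same-numbered libraries deviate in opposite directions, so the numbers are not shown to pair mice. Low counts limit Idi1 most.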
